A study of Homo sapiens with 38 samples.

Results

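The comparison set the 8 h response of human embryonic stem cells to the small molecule CHIR99021 against the 8 h response to an induced active form of beta-catenin, across all genes. It was computed as the change between 0 h and 8 h in the CHIR99021 arm minus the change between 0 h and 8 h in the beta-catenin arm (called bcat here). Both replicates of the 4 groups entered, so 8 of the 38 samples of the series carry the result, and 24304 of the 43412 gene rows were tested. A positive log2 difference means that the CHIR99021 arm changed upward relative to the bcat arm.

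All cells were H9, an established line of human embryonic stem cells. The CHIR99021 8 h group (n = 2) was H9 given 10 µM CHIR99021, and its 0 h group (n = 2) was untreated, undifferentiated H9. The bcat 8 h group (n = 2) was H9 with a stably integrated, doxycycline-regulated deltaN90 mutant of beta-catenin given 1 µg/ml doxycycline, and its 0 h group (n = 2) was the same line uninduced. Both 8 h groups also had their stem cell medium mTeSR1 replaced by RPMI1640 with B27 supplement lacking vitamin A when treatment began, and no group received that medium alone. The arms therefore differed in agent and also in cell line, integration and doxycycline, and these cannot be told apart. Another arm, H9 given 240 ng/ml recombinant Wnt3a with 0 h libraries of its own, is given side by side where it helps. The labels call the replicates biological and say no more, so p-values measure a spread between libraries. That spread was estimated from the libraries of all arms and times together, not from the groups compared alone.

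CHIR99021 inhibits both forms of the kinase GSK3. GSK3 marks beta-catenin for destruction inside a complex with AXIN and APC, and a beta-catenin that lacks its amino-terminal end escapes that mark and can drive TCF/LEF target genes while GSK3 stays active. GSK3 also phosphorylates many other proteins, among them glycogen synthase, MYC family proteins and cyclin D1, so the inhibitor and the stabilised protein need not have the same effects.

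The 8 libraries held 4.44 M to 40.7 M estimated counts (M for a factor of 1e6), with the fewest in the bcat 0 h group (4.44 M and 9.26 M). Within a group, replicates correlated at 0.993 (CHIR99021 8 h), 0.994 (CHIR99021 0 h), 0.989 (bcat 8 h) and 0.976 (bcat 0 h) on the log2 scale of CPM (counts scaled to a library total of 1e6) across genes. Cytosolic ribosomal RNA took 5.47% to 18.8% of counts in the CHIR99021 arm and 5.79% to 34.1% in the bcat arm, the highest share being that of bcat 0 h replicate 1. Mitochondrial ribosomal RNA took 11.4% to 14.3% at CHIR99021 8 h and 7.52% to 7.84% at CHIR99021 0 h, against 0.627% to 1.35% at bcat 8 h and 0.304% to 1.11% at bcat 0 h. These shares moved with the arms, and their part in the differences was not tested. POU5F1, a core transcription factor of pluripotent cells, stood at 736 and 792 CPM at CHIR99021 8 h, 985 and 975 CPM at CHIR99021 0 h, 807 and 847 CPM at bcat 8 h and 995 and 1237 CPM at bcat 0 h, so the stem cell label was met in all 8 libraries.

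CTNNB1, the beta-catenin gene (chr3:41194741-41260096, GRCh38), checked the labels of the bcat arm. It had 595 and 575 CPM at CHIR99021 8 h and 783 and 795 CPM at CHIR99021 0 h, against 2908 and 2692 CPM at bcat 8 h and 652 and 750 CPM at bcat 0 h. The bcat 8 h libraries stood above the other 6, which lay in one range. CTNNB1 rose by 2.00 ± 0.10 (log2 ± standard error) on induction and fell by 0.43 ± 0.10 with CHIR99021, a difference of -2.43 ± 0.14 (adjusted p = 3.89e-12, edgeR quasi-likelihood test). Reads of the integrated copy can be assigned to this gene, so its level does not separate transgene from endogenous mRNA. GSK3A and GSK3B, which encode the 2 forms of the kinase, had differences of 0.12 ± 0.32 and 0.16 ± 0.18 and were not called.

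Of 24304 genes tested, 656 (2.7%) had an 8 h change that differed between the arms at an adjusted p below 0.05. Of these, 150 (0.617%) changed upward with CHIR99021 relative to bcat and 506 (2.08%) changed downward. The arms on their own changed 5076 genes (20.9%) with CHIR99021 and 4545 (18.7%) with bcat. They shared 2378 genes called in the same direction, which is 46.8% of the CHIR99021 calls and 52.3% of the bcat calls, and 56 genes were called in opposite directions. The CHIR99021 calls numbered 3355 and 3199 without replicates 1 and 2 of CHIR99021 0 h and 2899 without CHIR99021 8 h replicate 1, and the bcat calls 2927 without bcat 0 h replicate 2. Genes in opposite directions numbered 33 without CHIR99021 0 h or 8 h replicate 1, 34 without CHIR99021 0 h replicate 2 and 36 without bcat 8 h replicate 1. Across the 12458 genes that reached 5 CPM in at least 1 group, the 2 changes correlated at r = 0.692, where genes are not independent replicates and all libraries of an arm share their line.

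The balance of higher and lower calls depended on the scaling between libraries. The median difference over all genes was -0.11 with the TMM scaling used here, and under size factors by relative log expression (RLE) it was -0.0016, with 271 genes higher and 349 lower. The share of higher calls was 22.9% with TMM and 43.7% with RLE, and 46.1% with DESeq2. None of the 656 genes had the opposite sign in any of 16 alternative settings (0 genes). The number of calls fell to 238 without CHIR99021 8 h replicate 1 and 401 without replicate 2, to 306 without CHIR99021 0 h replicate 1 and 279 without replicate 2, to 320 without bcat 8 h replicate 1 and to 334 without bcat 0 h replicate 1.

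**Figure D1:**
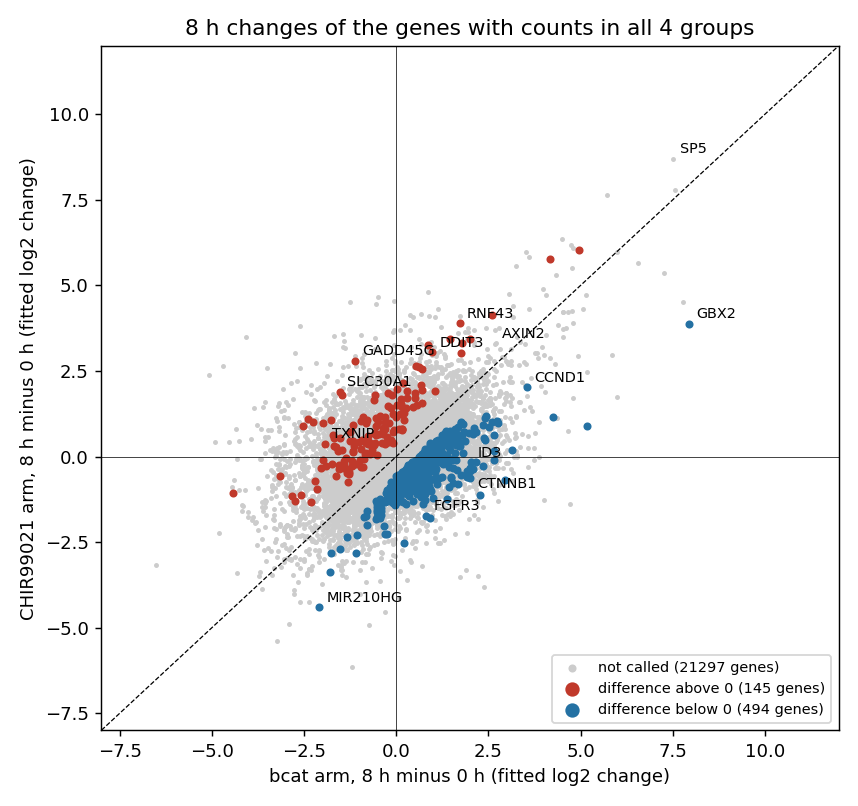
Fitted log2 change between 0 h and 8 h in the CHIR99021 arm (vertical axis) against the same in the bcat arm (horizontal axis) for the 21936 genes with counts in all 4 groups; the dashed line marks equal changes. The 145 genes in red were called above it and the 494 in blue below it, and the 21297 in grey were not called. GBX2 and CTNNB1 lie below the line and SLC30A1 and GADD45G above it, while AXIN2 and SP5 lie near it and were not called.

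A called difference came about in several ways, where "only" means called in that arm and not called in the other. Of the 150 genes that were higher, 57 rose with CHIR99021 only, 53 fell with bcat only, 15 rose in both arms, 12 fell in both, 12 rose with CHIR99021 and fell with bcat, and 1 was called in neither arm. Of the 506 that were lower, 206 rose with bcat only, 184 fell with CHIR99021 only, 49 rose in both, 44 fell with CHIR99021 and rose with bcat, 18 fell in both and 5 were called in neither. Protein-coding genes made up 88.7% of the higher and 88.5% of the lower genes, against 65.3% of all genes tested. The 4 pairwise changes of one arm did not overlap the 4 of the other in 149 of 150 and in 506 of 506 genes, where 31.9% of all genes tested had no overlap.

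Many of these genes also differed between the arms before any treatment. At 0 h, 3808 genes (15.7%) differed between the CHIR99021 arm and the bcat arm, 2334 (9.6%) higher and 1474 (6.06%) lower. At 8 h, 4527 genes (18.6%) did, 2140 (8.81%) higher and 2387 (9.82%) lower. The 0 h count was 2409 and 2377 without replicates 1 and 2 of CHIR99021 0 h, and the 8 h count was 2817 without bcat 8 h replicate 1 and 2759 and 2899 without replicates 1 and 2 of CHIR99021 8 h. Of the 656 genes, 278 were apart at 0 h and not called apart at 8 h, 270 were apart at 8 h and not called apart at 0 h, 49 were apart at both times on opposite sides, 38 were apart at both on the same side and 21 at neither. Leaving out 1 library at a time gave 106 to 263 genes apart at 0 h only and 89 to 221 apart at 8 h only, both lowest without CHIR99021 8 h replicate 1. Genes described in detail below are given with their levels at both times, and the others by their difference only.

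**Figure D2:**
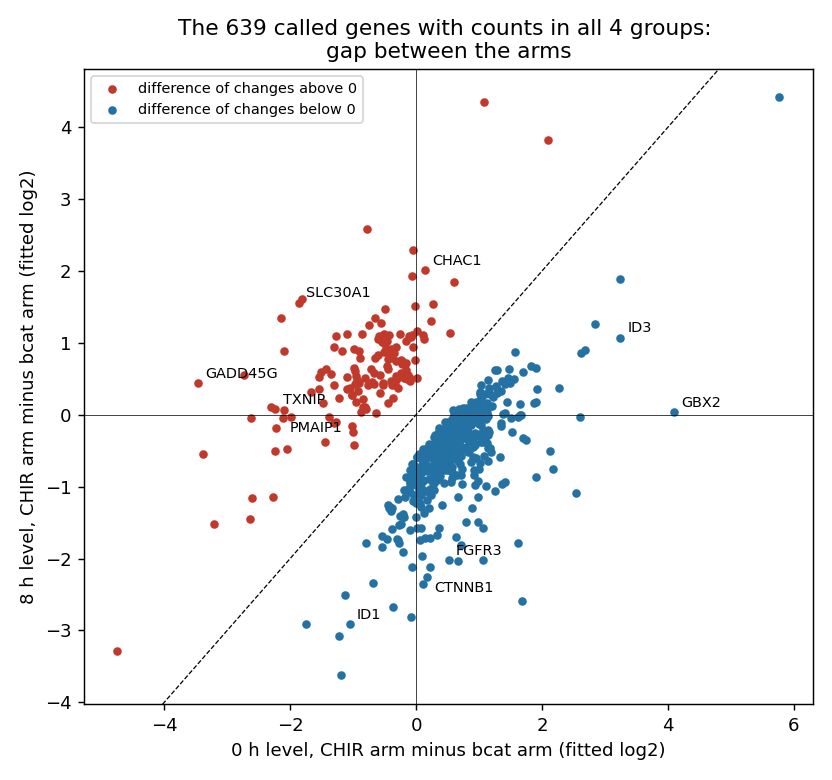
Gap in fitted log2 level between the CHIR99021 arm and the bcat arm at 8 h (vertical axis) against the same gap at 0 h (horizontal axis) for those of the 656 called genes that had counts in all 4 groups (145 above in red, 494 below in blue). TXNIP and PMAIP1 lie near 0 on the vertical axis and left of 0 on the horizontal one, CHAC1 and CTNNB1 lie near 0 on the horizontal axis, and SLC30A1 lies left of 0 at 0 h and above 0 at 8 h.

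The feedback genes and direct targets of WNT signalling responded in both arms. Of 20 such genes, 14 rose and 1 fell with CHIR99021 (background 9.19% and 11.7%), 13 rose and 1 fell with bcat (background 10.7% and 8.01%), and 10 rose and 1 fell with Wnt3a (background 2.28% and 1.18%). In the difference 2 were higher (background 0.617%), RNF43 and APCDD1, and 2 were lower (background 2.08%), SP8 and CCND1, and 0 were higher without bcat 0 h replicate 2. AXIN2, a scaffold of the destruction complex that beta-catenin itself induces, had 210 and 186 CPM at CHIR99021 8 h and 19.9 and 20.3 CPM at CHIR99021 0 h, against 171 and 147 CPM at bcat 8 h and 24.1 and 25.2 CPM at bcat 0 h. Both arms were far above their start and near each other at 8 h. The rise was 3.30 ± 0.20 with CHIR99021 and 2.68 ± 0.21 with bcat, and the difference of 0.62 ± 0.28 was not called (adjusted p = 0.273).

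SP5, a zinc finger factor induced by WNT, was nearly silent at 0 h and high at 8 h in both arms. It had 183 and 166 CPM at CHIR99021 8 h and 0.503 and 0.355 CPM at CHIR99021 0 h, against 66.2 and 47.6 CPM at bcat 8 h and 0 and 0.428 CPM at bcat 0 h. The level at 8 h was higher with CHIR99021 (1.60 ± 0.24, adjusted p = 4.37e-05), while the difference of changes was 1.21 ± 1.42 (adjusted p = 0.767), with few counts behind it in the uninduced bcat line. T (brachyury), the mesoderm factor, had 5.69 and 6.78 CPM at CHIR99021 8 h and 0.151 and 0.0592 CPM at CHIR99021 0 h, against 6.47 and 3.24 CPM at bcat 8 h and 0.294 and 0 CPM at bcat 0 h. It was near 0 in both arms at the start and at a like level in both at 8 h. Its bcat ratio was 74.0-fold with a counting interval of 13.2 to 2933, since 1 count was seen at bcat 0 h.

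APCDD1, a membrane inhibitor of WNT signalling, rose in all 3 arms. It had 19.8 and 24.9 CPM at CHIR99021 8 h and 1.51 and 2.49 CPM at CHIR99021 0 h, against 8.68 and 7.07 CPM at bcat 8 h and 2.94 and 2.89 CPM at bcat 0 h. The arms were not called apart at 0 h (-0.49 ± 0.30) and stood apart at 8 h (1.47 ± 0.18), for a difference of 1.96 ± 0.36 (adjusted p = 0.00191; 0.062 without bcat 0 h replicate 2). With Wnt3a it rose by 3.5 ± 0.23, where CHIR99021 gave 3.42 ± 0.20 and bcat 1.47 ± 0.26.

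RNF43, which encodes a ubiquitin ligase that removes WNT receptors, rose in both arms. It had 35.2 and 34.2 CPM at CHIR99021 8 h and 2.87 and 1.93 CPM at CHIR99021 0 h, against 39.6 and 25.3 CPM at bcat 8 h and 4.41 and 13.2 CPM at bcat 0 h. The 8 h libraries of both arms overlapped, and the 2 bcat 0 h libraries lay apart from each other. The difference of 2.18 ± 0.48 (adjusted p = 0.0142) was 0.99 without bcat 0 h replicate 2 (adjusted p = 0.544), 1.87 without CHIR99021 0 h replicate 2 (adjusted p = 0.109) and 2.15 without CHIR99021 8 h replicate 1 (adjusted p = 0.0513).

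CCND1, the gene of cyclin D1, and SP8, a relative of SP5, were lower in the difference although both rose in both arms. CCND1 had 351 and 293 CPM at CHIR99021 8 h and 78.4 and 79 CPM at CHIR99021 0 h, against 306 and 275 CPM at bcat 8 h and 23.2 and 26.2 CPM at bcat 0 h. Its 8 h levels overlapped between the arms and its 0 h levels did not. It rose by 2.03 ± 0.17 with CHIR99021 and by 3.53 ± 0.19 with bcat (difference -1.5 ± 0.25, adjusted p = 0.00077). SP8 had 26.4 and 23.7 CPM at CHIR99021 8 h and 16.6 and 15.7 CPM at CHIR99021 0 h, against 37.3 and 24.6 CPM at bcat 8 h and 5.29 and 4.81 CPM at bcat 0 h. It too began lower in the bcat line, and its difference was -2.02 ± 0.31 (adjusted p = 0.000242).

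Among 33 genes of WNT receptors and the destruction complex 3 were called (9.09%, against 2.7% of all genes). CTNNB1 was 1 of the 3, and its call was set by the design, since it was the gene induced in the bcat arm. The share is therefore no result about the list. CSNK1E, a casein kinase, was higher, at 0.66 ± 0.18, and CTNNB1 and FZD1 were lower. FZD1, a WNT receptor, had 3.55 and 4.03 CPM at CHIR99021 8 h and 5.88 and 5.75 CPM at CHIR99021 0 h, against 6.86 and 5.7 CPM at bcat 8 h and 3.23 and 3.64 CPM at bcat 0 h. It fell with CHIR99021 and rose with bcat, with a difference of -1.49 ± 0.34 (adjusted p = 0.012). The CSNK1E call was lost without any 1 of the 8 libraries, at 0.61 to 0.70. That of FZD1 was lost without either replicate of bcat 0 h (-1.43 and -1.61), bcat 8 h replicate 1 (-1.32) or CHIR99021 8 h replicate 1 (-1.39).

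**Figure D3:**
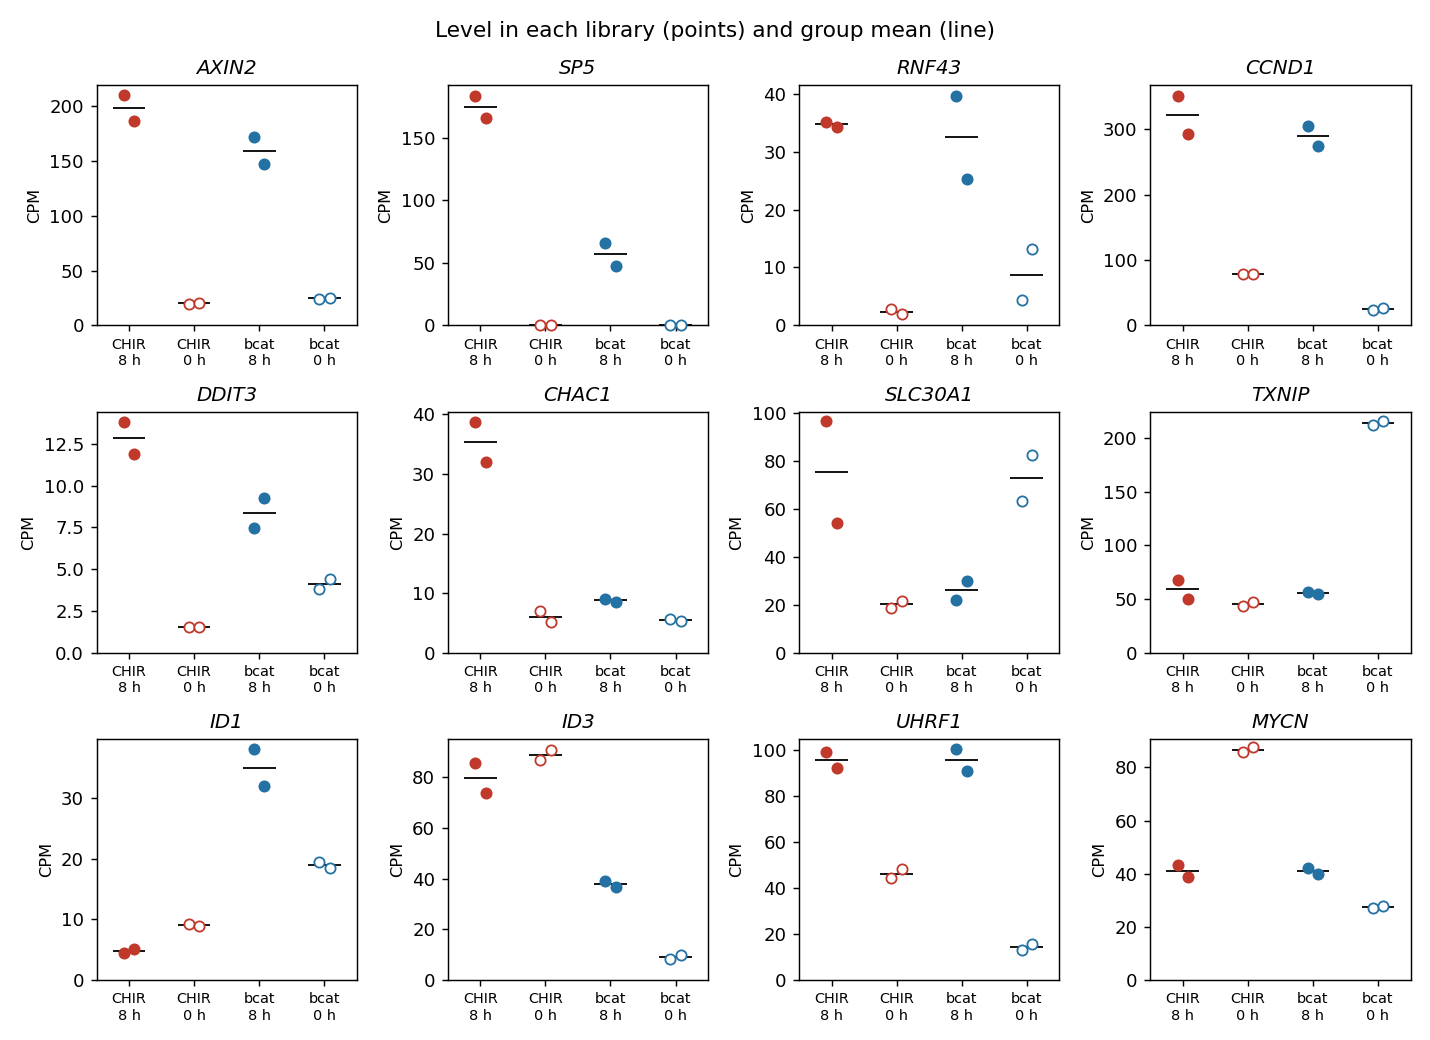
Level in CPM of 12 genes in each of the 8 libraries (points; filled at 8 h, open at 0 h; red for CHIR99021, blue for bcat) with the group mean as a line. AXIN2 and SP5 were high at 8 h in both arms; CHAC1 was high at CHIR99021 8 h (38.7 and 32 CPM) and under 10 CPM in the other 6 libraries; TXNIP was high at bcat 0 h (212 and 215 CPM) and at most 68 CPM in the other 6.

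The transcription factor ATF4 activates the genes of the amino acid response when amino acids run short or proteins misfold. Of 30 such genes, 8 were higher in the difference (background 0.617%) and 0 were lower (background 2.08%), with a median difference of 0.42 beside -0.11 over all genes. On their own, 22 rose and 3 fell with CHIR99021 (background 9.19% and 11.7%), 15 rose and 4 fell with bcat (background 10.7% and 8.01%), and 2 rose and 3 fell with Wnt3a (background 2.28% and 1.18%). The 8 were DDIT3, CHAC1, CTH, ATF3, SLC7A11, VLDLR, MTHFD2 and SHMT2; the last 4 are named because they complete the count. The count was 3, with 1 lower, without bcat 0 h replicate 2, 4 without CHIR99021 8 h replicate 1 and 5 without CHIR99021 0 h replicate 2, and 12 with DESeq2. The median kept its sign in all 16 alternatives, between 0.34 and 0.53.

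CHAC1 (chr15:40952962-40956519), which encodes an enzyme that breaks down glutathione, rose with CHIR99021. It had 38.7 and 32 CPM at CHIR99021 8 h and 6.99 and 5.06 CPM at CHIR99021 0 h, against 8.98 and 8.55 CPM at bcat 8 h and 5.59 and 5.35 CPM at bcat 0 h. The 0 h libraries overlapped between the arms and CHIR99021 8 h stood above all others. Its difference was 1.87 ± 0.41 (adjusted p = 0.0102), and the adjusted p was 0.0783 without bcat 0 h replicate 2, where the difference was 1.91, 0.0671 without CHIR99021 0 h replicate 2 (1.65) and 0.0511 without CHIR99021 8 h replicate 1 (1.73). With Wnt3a the change was 0.05 ± 0.28.

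CTH, which makes cysteine in the transsulfuration pathway, went in opposite directions. It had 20.2 and 21.9 CPM at CHIR99021 8 h and 7.74 and 12.3 CPM at CHIR99021 0 h, against 8.75 and 8.55 CPM at bcat 8 h and 16.8 and 13.7 CPM at bcat 0 h. It rose by 1.06 ± 0.20 with CHIR99021 and fell by 0.79 with bcat, and the difference of 1.84 ± 0.30 (adjusted p = 0.000457) was called in all 16 alternatives. ATF3, a stress-induced transcription factor, had 36 and 22.9 CPM at CHIR99021 8 h and 5.93 and 9.48 CPM at CHIR99021 0 h, against 13.1 and 14 CPM at bcat 8 h and 10.3 and 11.6 CPM at bcat 0 h. Both CHIR99021 8 h libraries were above the other 6. Its difference was 1.63 ± 0.33 (adjusted p = 0.00471; 0.0561 at 1.52 without bcat 0 h replicate 2 and 0.0571 at 1.26 without CHIR99021 8 h replicate 1).

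DDIT3, the stress factor also called CHOP, had 13.8 and 11.9 CPM at CHIR99021 8 h and 1.56 and 1.54 CPM at CHIR99021 0 h, against 7.45 and 9.23 CPM at bcat 8 h and 3.82 and 4.39 CPM at bcat 0 h. Its difference was 2.07 ± 0.49 (adjusted p = 0.0166), and it lost the call without any 1 of 5 libraries at a value between 1.91 and 2.08. Those were bcat 0 h replicate 2 (adjusted p = 0.143), bcat 8 h replicate 1 (0.0792), CHIR99021 0 h replicates 1 (0.0582) and 2 (0.0768) and CHIR99021 8 h replicate 1 (0.0673). ATF4 itself rose by 0.88 with CHIR99021, against 0.49 with bcat, and was not called in the difference (0.39), nor was ASNS, asparagine synthetase (0.10). Of the 20 cytosolic tRNA synthetases, which load tRNAs with amino acids, edgeR called 0 higher and 1 lower (5.0%, against 2.7% of all genes). DESeq2 called 3 higher and 1 lower. The edgeR call was AARS, at -0.81 ± 0.18. It was not called at -0.77 without CHIR99021 0 h replicate 2 and at -0.69 without CHIR99021 8 h replicate 1.

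The amino acid response element bound by ATF4 and C/EBP partners has the core TGATGNAA. It was looked for on both strands in the 250 bases before each RefSeq start (GRCh38.p14), where 1.99% of the 19147 promoters of tested genes and 3.14% of all 35116 promoters held it. It was found in 13 of 184 promoters (7.07%) of genes higher in the difference and in 1 of 561 (0.178%) of genes lower. The TCF core CTTTGAT was in 2.17% of the promoters of higher genes, 1.07% of those of lower genes and 1.52% of those of tested genes. The E-box CACGTG was in 7.07% of the promoters of higher genes, 9.09% of those of lower genes and 7.76% of those of tested genes. A match describes the letters only and shows no binding. The windows below are shown because they hold the element in genes described here, written 5′ to 3′ on the strand of the gene, with the element in capitals (CHAC1 chr15:40953247-40953284, ATF3 chr1:212565201-212565238, GADD45G chr9:89604895-89604932, LFNG chr7:2517679-2517716, all on the plus strand). The element reads on the opposite strand in CHAC1 and GADD45G.
CHAC1: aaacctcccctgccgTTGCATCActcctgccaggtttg
ATF3: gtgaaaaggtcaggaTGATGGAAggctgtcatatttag
GADD45G: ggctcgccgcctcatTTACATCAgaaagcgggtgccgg
LFNG: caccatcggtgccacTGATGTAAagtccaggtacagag

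GADD45G (chr9:89605013-89606555), a stress gene that restrains the cell cycle, had 4.13 and 4.32 CPM at CHIR99021 8 h and 0.855 and 0.415 CPM at CHIR99021 0 h, against 3.45 and 2.65 CPM at bcat 8 h and 7.06 and 6.53 CPM at bcat 0 h. It rose in one arm and fell in the other and ended at levels not called apart (0.44 ± 0.30). The difference was 3.91 ± 0.48 (adjusted p = 1.18e-05).

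BCL2L11 (chr2:111119378-111168447) and PMAIP1 encode BIM and NOXA, BH3-only proteins that promote apoptosis. BCL2L11 had 46.7 and 44.2 CPM at CHIR99021 8 h and 12.7 and 13.4 CPM at CHIR99021 0 h, against 21.9 and 20.5 CPM at bcat 8 h and 34.4 and 29.7 CPM at bcat 0 h. The arms changed sides: CHIR99021 was the lower at 0 h (-1.28 ± 0.15) and the higher at 8 h (1.09 ± 0.14). The difference was 2.37 ± 0.20 (adjusted p = 1.96e-08), and Wnt3a raised the gene by 0.58 ± 0.15. PMAIP1 had 129 and 102 CPM at CHIR99021 8 h and 57.7 and 65.3 CPM at CHIR99021 0 h, against 100 and 138 CPM at bcat 8 h and 227 and 305 CPM at bcat 0 h. Its 8 h levels overlapped, and its difference of 2.08 ± 0.27 (adjusted p = 4.81e-05) came with a 0 h gap of -2.12 ± 0.20. Neither BCL2L11 nor PMAIP1 was in the list of 20 p53 targets, of which 0 were called with edgeR. In so short a list that is near the 2.7% of all genes. DESeq2 also called 0, and 6 had an unadjusted p below 0.05.

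SLC30A1 (chr1:211571568-211578742), which encodes a transporter that exports zinc from the cell, went in opposite directions. It had 96.6 and 54.3 CPM at CHIR99021 8 h and 18.8 and 21.7 CPM at CHIR99021 0 h, against 22.1 and 29.9 CPM at bcat 8 h and 63.2 and 82.5 CPM at bcat 0 h. The arms changed places between 0 h and 8 h, with the CHIR99021 8 h and bcat 0 h libraries high and the other 4 low. It rose by 1.90 ± 0.26 with CHIR99021 and fell by 1.52 with bcat and by 1.22 with Wnt3a, and the difference was 3.42 ± 0.37 (adjusted p = 6.46e-06). Of the 10 metallothionein and zinc genes tested, 1 was higher, SLC30A1 (background 0.617%), and 1 was lower, MT1X (background 2.08%). MT1X, a zinc-binding metallothionein with close relatives in the genome, had a difference of -1.0 ± 0.28 (adjusted p = 0.0469). Most of the 10 leaned the other way from SLC30A1, with 3 differences above 0 and 7 below. The median difference of the list was -0.74, beside -0.11 over all genes, and 7 members had an unadjusted p below 0.05. The MT1X call was lost in 12 of 16 alternatives, among them every single library left out but bcat 0 h replicate 2, at -0.77 to -1.05.

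TXNIP, ARRDC4 and TSC22D3, genes that FOXO factors or nutrient and glucocorticoid signals control, were the 3 higher members of 20 FOXO and insulin genes (background 0.617%), and they were called in all 16 alternatives. TXNIP, an arrestin that limits glucose uptake, had 68 and 49.7 CPM at CHIR99021 8 h and 43.4 and 47.5 CPM at CHIR99021 0 h, against 56.8 and 54.7 CPM at bcat 8 h and 212 and 215 CPM at bcat 0 h. Only the uninduced bcat line stood out, and TXNIP fell by 1.94 with bcat (difference 2.31 ± 0.32, adjusted p = 0.00018). Its relative ARRDC4 had 39.6 and 29.5 CPM at CHIR99021 8 h and 13.9 and 16.5 CPM at CHIR99021 0 h, against 24.5 and 23.8 CPM at bcat 8 h and 30.9 and 34 CPM at bcat 0 h. It rose by 1.19 ± 0.21 with CHIR99021, and its bcat change of -0.44 ± 0.22 was not called (difference 1.62 ± 0.30). TSC22D3, a glucocorticoid-induced gene, had 36.1 and 26.8 CPM at CHIR99021 8 h and 11.3 and 10.7 CPM at CHIR99021 0 h, against 23.1 and 23.9 CPM at bcat 8 h and 19.4 and 22.8 CPM at bcat 0 h (difference 1.39 ± 0.23). Most of the 20 genes leaned the other way, with 6 differences above 0 and 14 below. The median difference of the list was -0.32, beside -0.11 over all genes. In the same list IRS1 and TRIB2 were lower, at -0.82 and -0.70 (background 2.08%). The count of lower members was 0 with RLE and without bcat 0 h replicate 1, bcat 8 h replicate 1 or any 1 of the 4 CHIR99021 libraries.

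DUSP10, a phosphatase of the stress kinases JNK and p38, had 6.62 and 5.22 CPM at CHIR99021 8 h and 0.603 and 0.622 CPM at CHIR99021 0 h, against 5.37 and 5.7 CPM at bcat 8 h and 2.94 and 3.1 CPM at bcat 0 h. The CHIR99021 arm began lower and caught up, with a difference of 2.41 ± 0.44 (adjusted p = 0.00222). JUN, a subunit of the AP-1 factor, was the 1 member called of 18 immediate early genes (background 2.7%), at 1.40 ± 0.36. Its call was lost in 7 of 16 alternatives, 6 of them without 1 library, with values of 1.24 to 1.45 (either replicate of bcat 0 h or of CHIR99021 0 h, bcat 8 h replicate 1 and CHIR99021 8 h replicate 1). TEF, a clock output factor, had 13.4 and 13 CPM at CHIR99021 8 h and 11.2 and 11.9 CPM at CHIR99021 0 h, against 6.63 and 5.99 CPM at bcat 8 h and 17.9 and 17.5 CPM at bcat 0 h. It fell with bcat and was not called with CHIR99021 (difference 1.66 ± 0.32, adjusted p = 0.00342). TEF was the 1 member called of 19 clock genes (background 2.7%), of which 14 had a difference above 0 and 5 below.

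CDH11, a mesenchymal cadherin, had 19.1 and 13.2 CPM at CHIR99021 8 h and 8.15 and 6.78 CPM at CHIR99021 0 h, against 7.65 and 7.47 CPM at bcat 8 h and 13.8 and 9.74 CPM at bcat 0 h. It rose with CHIR99021 (difference 1.70 ± 0.33, adjusted p = 0.00373). CDH11 was 1 of 2 genes called among 19 mesenchymal and EMT genes, both higher (background 0.617%). In that list 8 differences were above 0 and 11 below, with a median of -0.012. LFNG, a glycosyltransferase that tunes NOTCH receptors, fell in both arms and further with bcat. It had 13 and 10.7 CPM at CHIR99021 8 h and 21.4 and 17.9 CPM at CHIR99021 0 h, against 9.39 and 6.48 CPM at bcat 8 h and 39.1 and 37.2 CPM at bcat 0 h (difference 1.5 ± 0.28, adjusted p = 0.00292). LFNG was 1 of 2 genes called among 18 NOTCH genes, both higher, and 9 differences in that list were above 0 and 9 below.

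**Figure D4:**
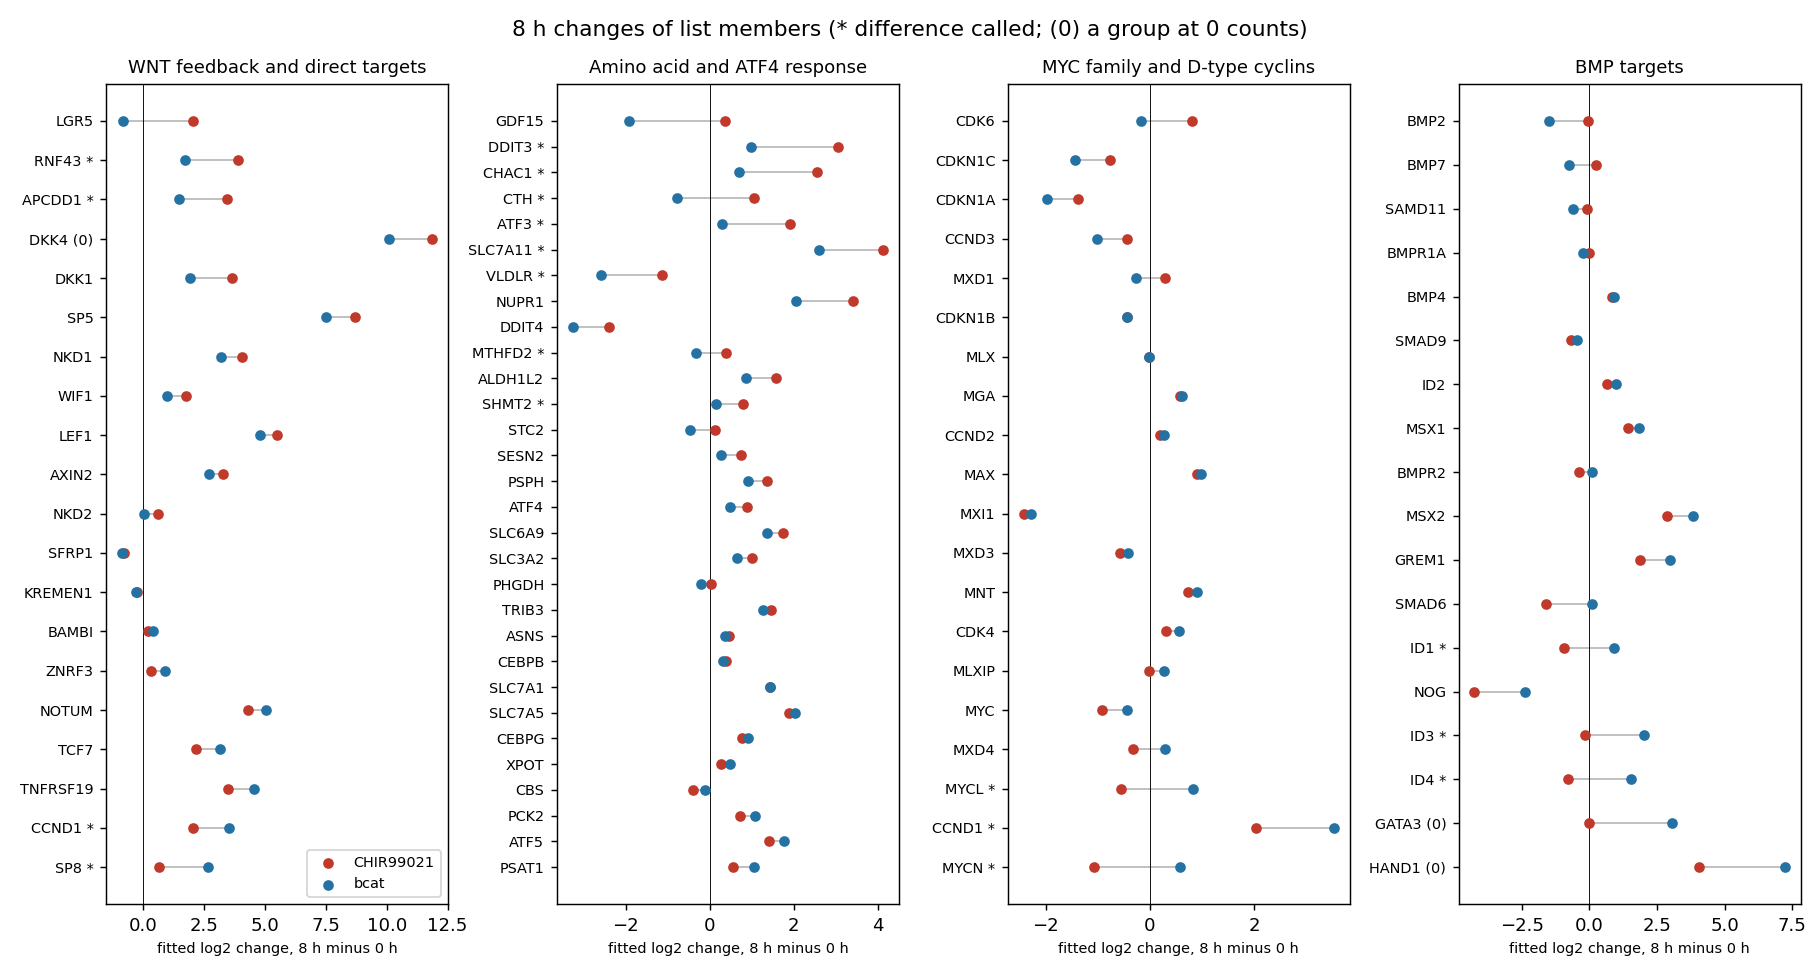
Fitted log2 change between 0 h and 8 h (horizontal axes) for each tested member of 4 gene lists (vertical axes) with CHIR99021 (red) and bcat (blue), ordered by the difference; an asterisk marks a called difference and (0) a gene with 0 counts in a group, whose fitted change is no measured fold. WNT targets lie right of 0 in both arms for most members, 8 of 30 amino acid genes are called with red to the right, and 3 genes of the MYC and cyclin list and 3 of the BMP list are called with blue to the right.

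Among the 44 lower genes that fell with CHIR99021 and rose with bcat was FGFR3. FGFR3 (chr4:1793293-1808872), a receptor for fibroblast growth factors, had 5.89 and 5.6 CPM at CHIR99021 8 h and 20 and 18.4 CPM at CHIR99021 0 h, against 25.2 and 21.3 CPM at bcat 8 h and 13.2 and 13.5 CPM at bcat 0 h. CHIR99021 8 h lay below the other 6 libraries. The difference was -2.54 ± 0.25 (adjusted p = 2.87e-07), and Wnt3a gave 0.43 ± 0.19, which was not called. PLCH1 (chr3:155375580-155745067), a phospholipase C that was another of the 44, had 8.07 and 11.1 CPM at CHIR99021 8 h and 32.8 and 33.6 CPM at CHIR99021 0 h, against 38.4 and 39.8 CPM at bcat 8 h and 18.2 and 22.6 CPM at bcat 0 h (difference -2.71 ± 0.26, adjusted p = 1.05e-07).

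PNMAL2 fell with CHIR99021 and was not called with bcat. It had 0.893 and 0.759 CPM at CHIR99021 8 h and 4.88 and 4.77 CPM at CHIR99021 0 h, against 6.32 and 5.4 CPM at bcat 8 h and 4.41 and 5.56 CPM at bcat 0 h. The 0 h libraries of the arms overlapped, and the difference was -2.73 ± 0.41 (adjusted p = 0.000195). AIM1 and CCDC160 instead rose with bcat. AIM1 had 36.5 and 22.8 CPM at CHIR99021 8 h and 45.1 and 44.7 CPM at CHIR99021 0 h, against 92.2 and 117 CPM at bcat 8 h and 29.4 and 26.1 CPM at bcat 0 h (difference -2.51 ± 0.31, adjusted p = 1.63e-05). CCDC160 had 7.15 and 6.73 CPM at CHIR99021 8 h and 5.68 and 6.66 CPM at CHIR99021 0 h, against 19.5 and 19.5 CPM at bcat 8 h and 2.94 and 3.21 CPM at bcat 0 h (difference -2.48 ± 0.32, adjusted p = 2.43e-05). In both genes bcat 8 h was above the other 6 libraries.

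GSK3 marks MYC family proteins and cyclin D1 for degradation. Of 20 genes of the MYC family, the D-type cyclins and their partners, 3 had an 8 h change that was lower in the difference (background 2.08%), MYCN, MYCL and CCND1, also in all 16 alternatives. MYCN had 43.2 and 38.9 CPM at CHIR99021 8 h and 85.8 and 87.6 CPM at CHIR99021 0 h, against 42 and 39.8 CPM at bcat 8 h and 27.1 and 27.8 CPM at bcat 0 h. The 8 h levels of the arms overlapped, and the difference was -1.65 ± 0.18 (adjusted p = 2.09e-06). MYCL had 22.1 and 28.7 CPM at CHIR99021 8 h and 38.5 and 36.2 CPM at CHIR99021 0 h, against 36.2 and 28.2 CPM at bcat 8 h and 15 and 20.4 CPM at bcat 0 h (difference -1.39 ± 0.22). MYC itself fell by 0.91 with CHIR99021, its bcat change of -0.44 ± 0.24 was not called, and its difference of -0.47 was not called. The median difference of the 20 genes was -0.11, the same as over all genes, with 7 above 0 and 13 below. DESeq2 called 1 of the 20 higher and 3 lower. These are mRNA levels, and protein was not measured here.

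Of 22 S phase genes, which serve DNA replication, 6 were lower (background 2.08%) and 0 higher (background 0.617%) in the difference, with a median difference of -0.40 beside -0.11 over all genes, and 11 rose with CHIR99021 (background 9.19%) and 16 with bcat (background 10.7%). UHRF1, which copies DNA methylation after replication, had 99.3 and 92 CPM at CHIR99021 8 h and 44.5 and 48 CPM at CHIR99021 0 h, against 100 and 90.8 CPM at bcat 8 h and 12.9 and 15.4 CPM at bcat 0 h. The bcat arm began lower and the 8 h levels overlapped, with a difference of -1.67 ± 0.27 (adjusted p = 0.000615). Others were RRM2 (-0.97), MCM6 (-0.96), E2F1 (-0.90) and SLBP (-0.59). The count was 1 without bcat 0 h replicate 1, CHIR99021 0 h replicate 2 or CHIR99021 8 h replicate 1, 3 without bcat 8 h replicate 1, CHIR99021 0 h replicate 1 or CHIR99021 8 h replicate 2, and 4 with RLE. Of 25 ribosome biogenesis genes 5 were lower, against the same 2.08% (RRS1, NCL, POLR1B, NOP16 and NOP56), with a median of -0.38; the count was 0 without bcat 8 h replicate 1 or CHIR99021 8 h replicate 1, 1 without bcat 0 h replicate 1, bcat 8 h replicate 2 or CHIR99021 0 h replicate 1, 2 without CHIR99021 0 h or 8 h replicate 2, 3 without bcat 0 h replicate 2 and 3 with RLE. At 0 h, 21 of these 25 were already higher in the CHIR99021 arm than in the bcat arm (background 9.6%). Of 22 genes of mitosis 0 were called with edgeR (background 2.7%), while DESeq2 called 1 higher and 1 lower, and 6 had an unadjusted p below 0.05. Their median difference was -0.22, with 17 members below 0 and 5 above, so 0 calls in so short a list does not show equal changes.

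Of 18 genes of the BMP pathway and its targets 3 were lower, ID1, ID3 and ID4, which encode inhibitors of basic helix-loop-helix factors that BMP signals induce (background 2.08%), and 0 were higher. ID3 had 85.6 and 73.6 CPM at CHIR99021 8 h and 86.9 and 90.9 CPM at CHIR99021 0 h, against 39 and 36.6 CPM at bcat 8 h and 8.23 and 9.95 CPM at bcat 0 h. It was not called with CHIR99021 and rose by 2.02 ± 0.16 with bcat, while staying higher in the CHIR99021 arm at both times (difference -2.18 ± 0.21, adjusted p = 1.05e-07). ID1 had 4.35 and 5.07 CPM at CHIR99021 8 h and 9.25 and 8.88 CPM at CHIR99021 0 h, against 38 and 32 CPM at bcat 8 h and 19.4 and 18.4 CPM at bcat 0 h. It stood lower in the CHIR99021 arm at both times, fell with CHIR99021 and rose with bcat (difference -1.86 ± 0.30, adjusted p = 0.000468). ID4 differed by -2.32 ± 0.44 (adjusted p = 0.00268; 0.0567 at -1.85 without bcat 0 h replicate 2).

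ZIC1, a zinc finger factor of the neural plate, had 1.87 and 1.42 CPM at CHIR99021 8 h and 0.654 and 0.829 CPM at CHIR99021 0 h, against 11.5 and 9.72 CPM at bcat 8 h and 0 and 0 CPM at bcat 0 h. With 0 counts at bcat 0 h, its bcat rise was at least 47.4-fold against a floor of 3 counts over that group. GBX2, a homeobox gene of the hindbrain boundary, had 45.7 and 35.9 CPM at CHIR99021 8 h and 2.51 and 2.96 CPM at CHIR99021 0 h, against 48.6 and 29.9 CPM at bcat 8 h and 0 and 0.214 CPM at bcat 0 h. Its 8 h levels overlapped, and 2 counts at bcat 0 h gave a bcat ratio of 285-fold with a counting interval of 78.8 to 2354. Both differences were called (adjusted p = 0.000508 for ZIC1 and 0.00391 for GBX2, and 0.0691 for GBX2 without bcat 0 h replicate 2, where its fitted difference was -8.96). AMOTL1, a YAP-binding junction protein, had 104 and 119 CPM at CHIR99021 8 h and 55.8 and 68.3 CPM at CHIR99021 0 h. The bcat arm had 70.5 and 71.9 CPM at 8 h and 15.3 and 17.3 CPM at 0 h. AMOTL1 rose in both arms and further with bcat, from a lower start (difference -1.26 ± 0.22, adjusted p = 0.00111). It stayed lower in the bcat arm at 8 h.

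Of 22 genes of the primed pluripotent state, 3 rose and 10 fell with CHIR99021 (background 9.19% and 11.7%), 4 rose and 9 fell with bcat (background 10.7% and 8.01%), and 5 were lower in the difference (background 2.08%). These were FOXD3, L1TD1, PRDM14, USP44 and DNMT3B, with 0 members higher; the count was 2 without CHIR99021 8 h replicate 1 and 3 without bcat 0 h replicate 1, either replicate of bcat 8 h or either replicate of CHIR99021 0 h. USP44, a deubiquitinase, had 130 and 144 CPM at CHIR99021 8 h and 363 and 391 CPM at CHIR99021 0 h, against 128 and 144 CPM at bcat 8 h and 164 and 223 CPM at bcat 0 h. The 8 h levels overlapped (difference -0.94 ± 0.18, adjusted p = 0.00351). L1TD1, an RNA-binding protein of stem cells, had 437 and 491 CPM at CHIR99021 8 h and 495 and 532 CPM at CHIR99021 0 h, against 470 and 567 CPM at bcat 8 h and 175 and 227 CPM at bcat 0 h (difference -1.5 ± 0.26, adjusted p = 0.00177). The bcat 0 h libraries alone were low. NANOG (0.01 ± 0.33), SOX2 (-0.25 ± 0.21) and POU5F1 (0.07 ± 0.15) were not called. Over the 22 genes 9 differences were above 0 and 13 below, with a median of -0.18 beside -0.11 over all genes. DESeq2 called 3 of the 22 higher and 5 lower. The calls of FOXD3 and PRDM14 were lost in 9 and 11 of the 16 alternatives.

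Of 25 cholesterol synthesis genes 24 fell with CHIR99021 (background 11.7%), 20 with bcat (background 8.01%) and 18 with Wnt3a (background 1.18%), and 1 (4.0%) was called in the difference, against 2.7% of all genes. That was STARD4, a cholesterol carrier, with 44 and 52.5 CPM at CHIR99021 8 h and 124 and 117 CPM at CHIR99021 0 h, against 25.7 and 24.1 CPM at bcat 8 h and 106 and 140 CPM at bcat 0 h. It fell less with CHIR99021 (difference 0.99 ± 0.21, adjusted p = 0.00777; 0.0725 at 0.76 without bcat 0 h replicate 2). Of 30 hypoxia and glycolysis genes 23 fell with CHIR99021, 26 with bcat and 5 with Wnt3a, against the same backgrounds, and 3 (10.0%) were called in the difference. VEGFA was higher (0.92 ± 0.23) and MIR210HG and KDM3A (-0.81 ± 0.20) lower in the difference. VEGFA kept its call without bcat 0 h replicate 1 only, at 0.85 to 0.93 without each of the others, and KDM3A without the second replicate of either bcat group only, at -0.58 to -0.88 without each of the others.

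MIR210HG, the host transcript of a hypoxia-induced microRNA, had 0.81 and 0.664 CPM at CHIR99021 8 h and 14.9 and 16.8 CPM at CHIR99021 0 h, against 5.94 and 3.24 CPM at bcat 8 h and 17.1 and 23.2 CPM at bcat 0 h. It fell in both arms and lower with CHIR99021 (difference -2.31 ± 0.50, adjusted p = 0.00994; 0.139 at -1.74 without bcat 8 h replicate 1 and 0.0558 at -2.49 without CHIR99021 8 h replicate 1). Fatty acid synthesis (0 of 14), NRF2 targets (0 of 21) and lysosome genes (0 of 28) had no member called with edgeR. In lists this short that is near the 2.7% of all genes. Unadjusted p was below 0.05 for 2, 1 and 3 members, and DESeq2 called 0, 0 and 1.

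**Figure D5:**
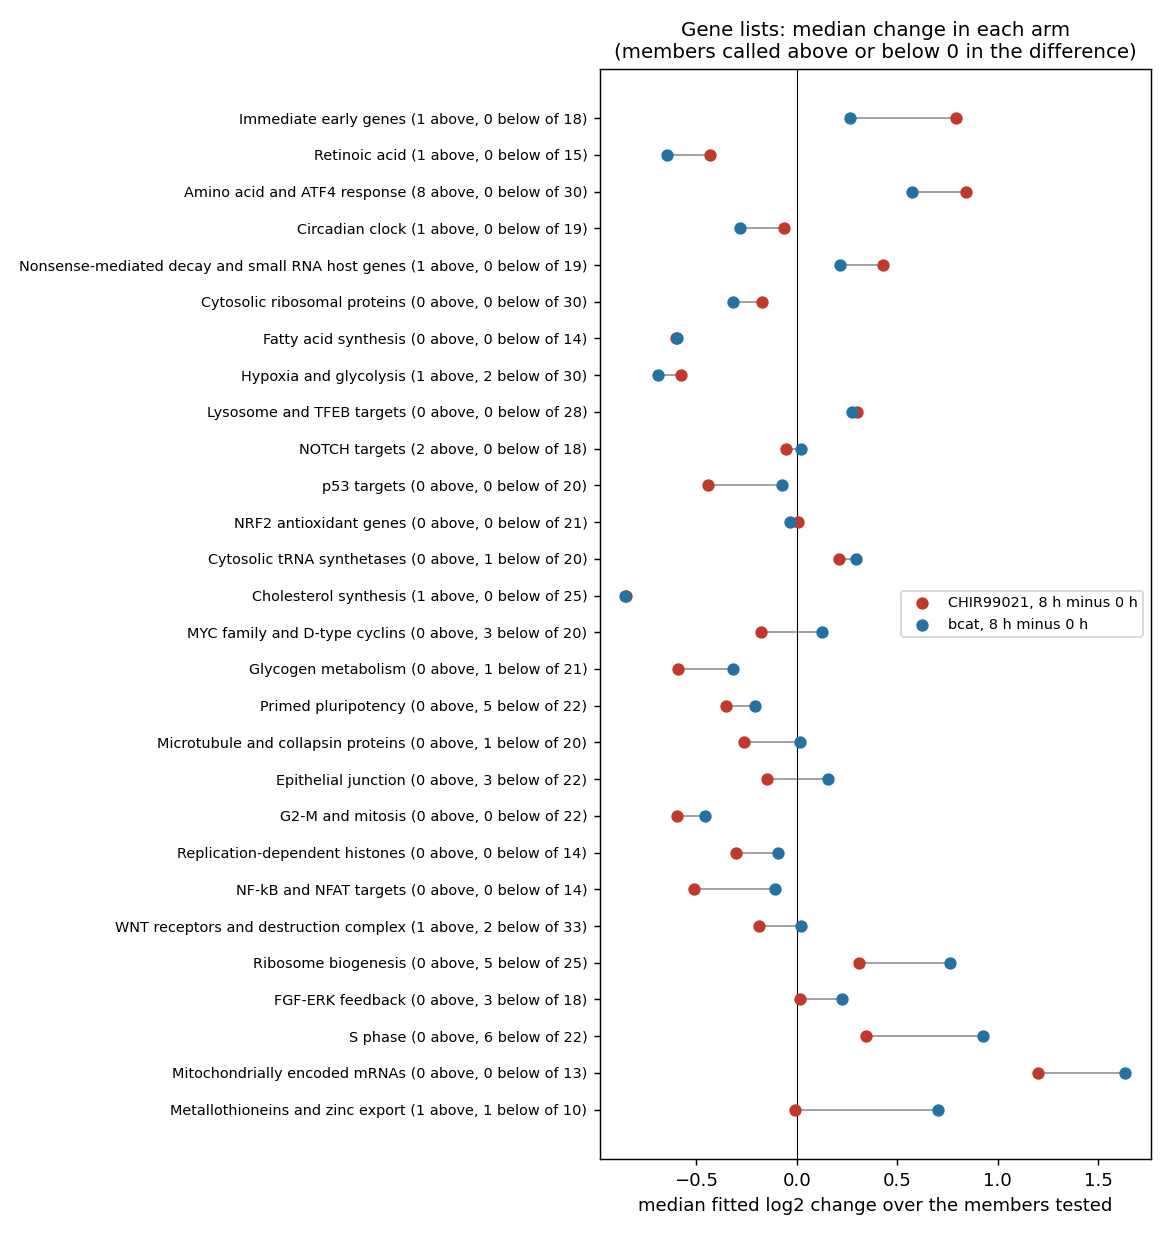
Median fitted log2 change between 0 h and 8 h (horizontal axis) over the tested members of each gene list in which no member was at 0 counts in a group, with CHIR99021 in red and bcat in blue, ordered by the median difference (highest at the top); the labels give the members called above and below 0 in the difference. Cholesterol and fatty acid synthesis have overlapping points left of 0, the amino acid list has red right of blue, and the S phase and ribosome biogenesis lists have blue right of red.

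Markers of other cell types were read against the 2.7% of all genes called in the difference. Of 20 primitive streak and mesendoderm genes 0 were called in the difference with edgeR, 1 had an unadjusted p below 0.05 and DESeq2 called 2 higher. Of the 20, 7 had 0 counts in a group, so the lack of calls does not show that the arms were alike in these genes. On their own, 8 of the 20 rose and 1 fell with CHIR99021 (background 9.19% and 11.7%), 6 rose and 3 fell with bcat (background 10.7% and 8.01%), and 8 rose with Wnt3a (background 2.28%). CXCR4, a chemokine receptor and the 1 member called of 11 endoderm genes (9.09%), had 1.9 and 1.61 CPM at CHIR99021 8 h and 2.36 and 2.19 CPM at CHIR99021 0 h, against 8.73 and 6.19 CPM at bcat 8 h and 1.47 and 2.14 CPM at bcat 0 h. It rose with bcat and was not called with CHIR99021 (difference -2.34 ± 0.47, adjusted p = 0.00459). TFAP2C, a factor of trophoblast and early germ cells and the 1 called of 10 amnion and trophoblast genes (10.0%), had 2.74 and 1.8 CPM at CHIR99021 8 h and 2.72 and 3.11 CPM at CHIR99021 0 h, against 6.86 and 6.29 CPM at bcat 8 h and 27.9 and 26.4 CPM at bcat 0 h. It was high in the uninduced bcat line and lower after induction (difference 1.69 ± 0.35, adjusted p = 0.00589; 0.0974 at 1.34 without CHIR99021 8 h replicate 1). In bulk RNA a smaller share of cells and less RNA per cell cannot be told apart.

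The Wnt3a arm, which entered neither side, was called for 839 genes at 8 h (3.45%). Its 0 h libraries held 2.45 M (replicate 1) and 65.7 M (replicate 2) estimated counts. The part of this depth in the number of Wnt3a calls was not tested. Of the 150 genes higher in the difference, Wnt3a raised 25 (16.7%) and lowered 7 (4.67%). Of the 506 lower, it raised 35 (6.92%) and lowered 23 (4.55%). Over all genes tested Wnt3a raised 2.28% and lowered 1.18%. Its median change was 0.09 over the higher and 0.03 over the lower genes. The same medians were 0.69 with CHIR99021 and -0.66 with bcat for the higher genes, and -0.43 with CHIR99021 and 0.65 with bcat for the lower genes. The choice of genes by the difference fixes which of these arm medians is higher.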

How the data were processed

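Total RNA was sequenced by the authors. The deposited gene table holds estimated counts, made with kallisto 0.43.0 per the submitters' processing notes; no source used here gives the genome build, the annotation or how transcripts were summed. Each deposited column was a set of estimated counts multiplied by 1 constant, from 0.265 to 6.58 over the libraries. Each was divided by its constant (its commonest value above 0, taken as 1 count), and rounded; in 56.8% to 81.1% of entries at or below 20 counts, rounding moved the value by no more than 0.1. Totals were then 2.45 M to 65.7 M. The 2 Wnt3a 72 h columns were identical and entered as 1 library, leaving 37 libraries. The 27 symbols turned into dates were tested and are not named. Symbols were placed with GENCODE 29.

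All 37 libraries entered 1 edgeR 4.0.16 quasi-likelihood fit (R 4.3.3) of 19 group means with TMM scaling, trended dispersions, robust estimation and filterByExpr. Benjamini-Hochberg adjustment ran over all 24304 genes, and genes were called below 0.05. CPM are TMM-scaled. On simulated data for the difference of 8 h changes (24134 genes), 38 of 100 genes changed 2-fold and 83 of 100 changed 4-fold were recovered, 7 unchanged genes were called, and 5.185% of unchanged genes had unadjusted p below 0.05. Named genes were the 12 per direction of largest difference among called genes that reached 5 CPM and whose arms did not overlap, the 4 called members of largest difference per list, 9 fixed genes, and the 4 per direction of largest difference called in opposite directions. Of these 86 genes, those called in every alternative (29 of the 78 called) are described in most detail, and list members beyond the 4 are named only to complete a count, both chosen after their values were seen. The comparison, the 44 lists and the tests were chosen with earlier results of these data known. Alternatives were RLE size factors, no low-count filter, DESeq2 1.42.0, the 8 libraries alone, a replicate block, the deposited values, each of the 8 libraries left out, and, chosen after seeing the data, scaling on protein-coding genes and leaving out 4 libraries in doubt (bcat 0 h replicate 1, bcat 24 h replicate 1, bcat 48 h replicate 2 and Wnt3a 0 h replicate 1). Counting intervals are exact, at 95%, and cover counting error only. Promoters came from RefSeq. Some list members are not reported here.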

Additional observations from a re-analysis of the deposited data

Results flagged for a closer look

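The 656 genes whose 8 h change differed between the arms were picked up because a test of the difference itself was passed, and 56 of them were called in opposite directions in the 2 arms. Of the genes called in opposite directions and at 5 CPM or more, 10 had a difference above 0 and 41 below 0. The 4 of largest difference above 0 were GADD45G (3.91), SLC30A1 (3.42), BCL2L11 (2.37) and PMAIP1 (2.08), all called in all 16 alternatives. The 4 of largest difference below 0 were PLCH1 (-2.71), BLACAT1 (-2.63), FGFR3 (-2.54) and AIM1 (-2.51). BLACAT1, a long noncoding RNA, had 2.51 and 5.98 CPM at CHIR99021 8 h and 9.55 and 10.1 CPM at CHIR99021 0 h, against 4.94 and 3.14 CPM at bcat 8 h and 1.18 and 1.82 CPM at bcat 0 h, and lost its call with the 8 libraries alone (adjusted p = 0.0765).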

How the results depend on the processing

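Against 656 calls in the difference (150 higher, 506 lower), the fit of the 8 libraries alone called 320, with 174 lower, leaving out the 4 libraries in doubt called 336, with 209 lower, and DESeq2 called 1073, with 495 higher; RLE called 271 higher. Leaving out 1 library gave 238 to 581 calls, 59 to 115 higher and 179 to 466 lower. The same range was 2899 to 5300 for the CHIR99021 change, 2927 to 4444 for the bcat change, 2377 to 3850 for the 0 h and 2759 to 4794 for the 8 h contrast of the arms, and 33 to 62 for genes in opposite directions, of which 37 were left without the 4 libraries in doubt. Genes apart at 0 h only numbered 123 with the 8 libraries alone, 125 without the libraries in doubt and 106 to 263 without 1 library; those apart at 8 h only numbered 118, 140 and 89 to 221, and 454 with DESeq2. Of the 656 genes, 33.7% to 94.7% were called again in each alternative. Replicate numbers did not pair samples (correlation of deviations between 8 h and 0 h -0.0207 with CHIR99021 and 0.0407 with bcat), and the replicate block called 594. The cause of these shifts was not tested. The depth of the bcat 0 h libraries limits genes with few counts there.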
